A study of Mus musculus with 2 samples.

Results

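Translation of most mRNAs begins with the eukaryotic initiation factors (eIFs), and 47 of their genes were followed here through an siRNA screen for survival of neural stem cells after DNA alkylation. The members were all genes whose symbol starts with Eif, read by 133 of the 34945 probe sets that carried 1 gene symbol. A single probe set stood for each gene, the one with the highest log2 signal averaged across the arrays. This left 47 of 18193 genes, and other probe sets are given by value, range or count where they are named. The MNNG survivors were mouse neural stem cells of the line ANSO4E that had been infected with a lentiviral siRNA library and had outlived repeated exposure to 500 µM MNNG, an agent that methylates DNA, for 15 min. The reference control was the same line with the same library and no MNNG. ANSO4E is a single line, derived from a transgenic mouse whose background was C57BL/6JxSJL/JF1 crossed to BDF1, so both groups share 1 genetic origin. The inserts recovered from each culture were hybridized to 1 Affymetrix mouse genome array per group, and with 1 array each no difference below has a replicate check or a p-value.

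The signal of a probe set was read as the abundance of library inserts against its gene and not as expression of the gene. A higher signal in the survivors is therefore read as more signal from inserts against that gene after selection, on this pair of arrays. No detection call shows which signals lie above background. At the chosen probe sets all members but Eif4e2 lay below 3 on both arrays. Of the member probe sets 95.5% shared their pair of values with another probe set. Which of the differences at such low signals reflect inserts is therefore not known. The labels give genomic DNA as the template of the insert PCR, while the paper's methods give cDNA made from total RNA. The cell type could not be checked through its markers, since the arrays were meant to read inserts. The 10 markers of neural stem cells measured here (among them Nes, Sox2 and Vim) lay between 0.03 and 2.59 on the log2 scale in the survivors and between 0.43 and 2.01 in the reference control. Median log2 signals over all 45037 probe sets were 0.74 in the survivors and 0.69 in the reference control, with 58 probe sets above 5 in the survivors and 301 in the reference control. Differences are survivors minus reference control as deposited. Centering the arrays on their 18 hybridization controls, all of which were higher in the survivors, lowers every difference by 2.77, so directions are relative to the median gene, whose difference was 0.00 as deposited.

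Initiation starts when eIF2 brings the initiator methionyl-tRNA to the small ribosomal subunit together with eIF1, eIF1A and the large scaffold eIF3. The cap of the mRNA is bound by eIF4E, which works with the scaffold eIF4G and the helicase eIF4A, and eIF5 and eIF5B complete the joining of the large subunit. Under stress, 4 kinases phosphorylate the alpha subunit of eIF2. This blocks eIF2B, the factor that recharges eIF2 with GTP, and lowers general protein synthesis while mRNAs such as that of Atf4 are translated, a program known as the integrated stress response.

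As a family, the initiation factors were divided evenly between the arrays. Of the 47 genes, 22 (46.8%) lay higher in the survivors, beside 43.5% of all 18193 genes. Another 21 (44.7%) lay lower, beside 38.1% of all genes, and 4 (8.51%) had the same value on both arrays, beside 18.4%. The median log2 difference was 0.00 for the members and 0.00 for all genes. Most differences were small, with 32 of 47 (68.1%) within 0.5 of zero on the log2 scale, against 70.5% of all genes. A difference of more than 1 was found upward for 5 members (10.6%, with 4.78% of all genes past this limit) and downward for 2 (4.26%, with 5.45% of all genes). The upward share depended on the scaling, at 4.26% of members beside 3.75% of all genes after median centering and 4.26% beside 4.52% after loess, a local fit of difference on signal. It stayed at 10.6% after quantile normalization, beside 5.71% of all genes, and with both arrays floored at the 25th percentile, beside 3.91%. The 5 were Eif4ebp1, Eif2s3x, Eif2a, Eif4a3 and Eif4b, and the 2 were Eif4e2 and Eif3e. At 2.5, the ratio limit of the screen, there were 0 members upward, beside 0.253% of all genes. Downward there was 1, Eif4e2, beside 1.73% of all genes. The paper joined its ratio limit to a limit on signal, which was not applied here. Chosen signals of the members ran from 0.23 to 2.09 in the survivors and from -0.34 to 5.49 in the reference control. Only Eif4e2 lay above 3 on either array, where 216 of all genes did so in the survivors and 546 in the reference control.

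**Figure D1:**
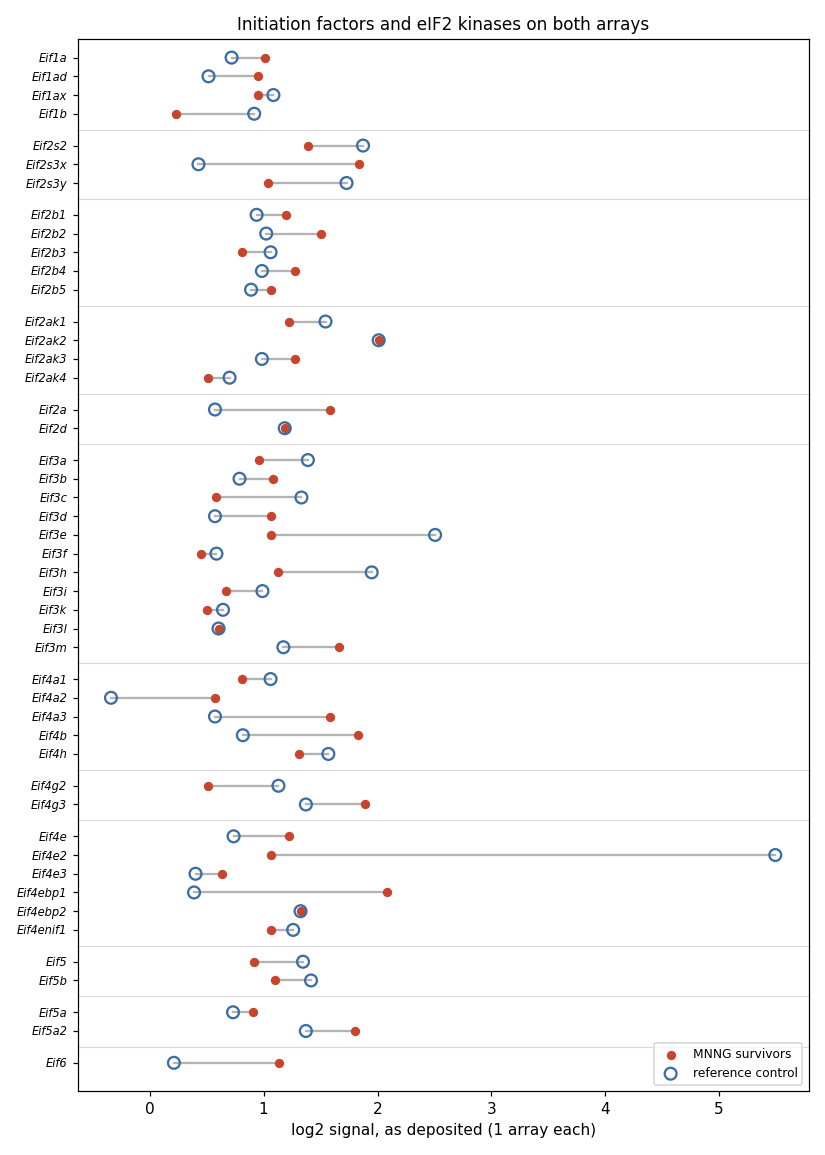
Log2 signal (horizontal axis) of each of the 47 genes (vertical axis, grouped by factor) at its probe set of highest mean, with filled points for the MNNG survivors, open rings for the reference control and a grey line between them. Eif4e2 at 1.07 and 5.49 is the widest gap, and a ring around a filled point marks equal values on both arrays.

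Among the cap-binding proteins, Eif4e2 was the member with the largest difference. Eif4e2 encodes 4EHP, a relative of eIF4E that binds the cap but not eIF4G and is known as a repressor of translation. Its probe set 1435803_a_at had a log2 signal of 1.07 in the survivors and 5.49 in the reference control, a difference of -4.43. The difference was -3.30 after quantile normalization and -3.39 after loess. The survivors' value equaled the 75th percentile of that array, a value found there at 1597 probe sets, and no detection call shows whether it lies above background, so no fold is given. The other 4 probe sets of Eif4e2 did not share the high signal in the reference control. Probe set 1435804_at, made from the same GenBank sequence, had 1.19 in the survivors and 0.67 in the reference control, and 1421985_a_at had 2.11 in the survivors and 1.33 in the reference control. The remaining pair had 1.04 and 0.70 in the reference control and differences of -0.25 and 0.00. A single probe set therefore carried the large difference of the gene. In the reference control 201 of all genes (1.10%) lay above 5, and Eif4e2 was 1 of them.

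The canonical cap-binding protein Eif4e had 1.22 in the survivors and 0.74 in the reference control, a difference of 0.48, with differences from -0.23 to 0.48 over its 4 probe sets. Eif4e3, another cap-binding protein of that family, had 0.63 in the survivors and 0.40 in the reference control, a difference of 0.23, with -0.14 at its other probe set. Neither was past the limit of 1 at any probe set.

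The 4E-binding proteins hold eIF4E away from eIF4G until the kinase mTORC1 phosphorylates them. Eif4ebp1 had 2.09 in the survivors and 0.39 in the reference control, a difference of 1.70 and the largest upward one among the members. It was read by an _x_at probe set, a class that shares probes with other sequences, and its 2 plain probe sets differed by 0.52 and -0.39. Eif4ebp2 had 1.32 on both arrays, and its 4 other probe sets ran from -0.14 to 0.68. Eif4enif1, which encodes the shuttling protein 4E-T that carries eIF4E into the nucleus, had 1.07 in the survivors and 1.26 in the reference control. Of the 6 genes of this group, 3 were higher, 2 were lower and 1 was equal, with a median difference of 0.11.

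**Figure D2:**
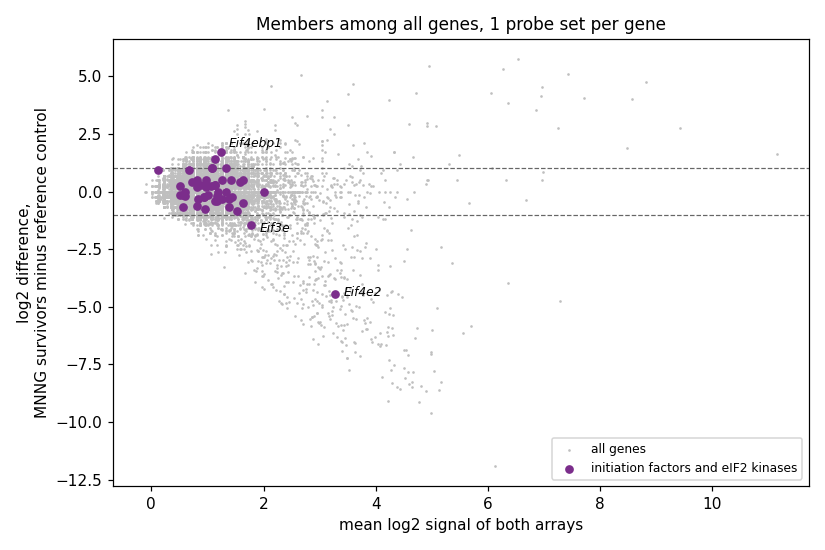
Log2 difference, MNNG survivors minus reference control (vertical axis), plotted by log2 signal averaged across the arrays (horizontal axis), with all 18193 genes in grey, the 47 members in purple and dashed lines at differences of 1 and -1. Eif4e2 at -4.43 stands among the genes that were bright in the reference control, while the other members lie in the dense cloud at low signal.

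Of the helicase eIF4A and its helpers, 3 genes were higher and 2 were lower. The helicase genes Eif4a1 and Eif4a2 had differences of -0.25 and 0.91. Eif4a1 had 0.81 in the survivors and 1.06 in the reference control, and 1 of its other probe sets had -0.04 in the survivors and 1.07 in the reference control, a difference of -1.12. Eif4a2, read by 1 probe set, had 0.57 in the survivors and -0.34 in the reference control. Eif4a3, a relative that belongs to the exon junction complex, had 1.59 in the survivors and 0.57 in the reference control, a difference of 1.01 at its only probe set with 1 symbol. Eif4b and Eif4h both stimulate the helicase. Eif4b had 1.83 in the survivors and 0.82 in the reference control, also a difference of 1.01, but its other 2 probe sets, made from the same GenBank sequence, had -0.13 and -0.48. Eif4h had 1.31 in the survivors and 1.57 in the reference control, with 3 of its 6 probe sets higher and 3 lower. For these 5 genes the median difference was 0.91, and it was -0.076 when each gene was taken at the median of its probe sets.

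Both measured scaffolds of the eIF4G family kept 1 direction over their probe sets. Eif4g2, which encodes the scaffold DAP5 of cap-independent translation, had 0.51 in the survivors and 1.13 in the reference control, and 4 of its 5 probe sets were lower and 1 equal. Eif4g3 had 1.89 in the survivors and 1.37 in the reference control, and 3 of its 4 probe sets were higher and 1 equal. The differences of -0.62 and 0.52 at the chosen probe sets are within the limit of 1, as were those at all their other probe sets.

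The 4 eIF2 kinases lay within 0.5 of zero at their chosen probe sets. Eif2ak2 encodes PKR, which is activated by double-stranded RNA, and is the only member in the paper's list of selected genes, which were chosen on these samples. Its probe set 1422006_at had 2.01 on both arrays, a difference of 0.00. The other probe set made from the GenBank entry listed for it, 1422005_at, had 1.40 in the survivors and 1.11 in the reference control, and the remaining one, 1440866_at, had 0.47 in the survivors and 0.24 in the reference control. Differences of 0.29 and 0.23 at these probe sets put Eif2ak2 at or slightly above zero throughout, with none past 1.

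Eif2ak1 encodes HRI, the kinase that responds to lack of heme. It had 1.23 in the survivors and 1.54 in the reference control, a difference of -0.32, and 2 of its 5 probe sets were higher and 3 lower, from -0.69 to 0.43. Eif2ak3 encodes PERK, the kinase of the endoplasmic reticulum. It had 1.28 in the survivors and 0.98 in the reference control, a difference of 0.29, with -0.19 and 0.29 at the other 2 probe sets. Eif2ak4 encodes GCN2, which senses uncharged tRNA, and had 0.51 in the survivors and 0.70 in the reference control, with differences of -0.19 and -0.23 at its 2 probe sets. Over the 4 kinases, 1 was higher, 2 were lower and 1 was equal.

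Their substrate, eIF2, was represented by its beta and gamma subunits. Eif2s2, the beta subunit, had 1.39 in the survivors and 1.87 in the reference control, a difference of -0.48, and of its 6 probe sets 4 were lower and 2 equal. The gamma subunit has an X-linked and a Y-linked gene in the mouse, and these differed in sign. Eif2s3x had 1.83 in the survivors and 0.43 in the reference control, a difference of 1.41, whereas its other 2 probe sets had -0.43 and -0.19. Eif2s3y had 1.04 in the survivors and 1.73 in the reference control, a difference of -0.69, and was also lower at its other probe set (-0.48). Inserts that match both gamma genes cannot be told apart from inserts that match 1 of them in these signals.

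All 5 subunits of eIF2B were within 0.5, and 4 of them were higher in the survivors. Eif2b2 had the widest gap, with 1.51 in the survivors and 1.02 in the reference control, but its 2 other probe sets were lower (-0.48 and -0.19). Eif2b1 had 1.19 in the survivors and 0.94 in the reference control, and Eif2b4 had 1.28 in the survivors and 0.98 in the reference control. Both rest on 1 probe set. Eif2b5, the catalytic subunit, had 1.07 in the survivors and 0.89 in the reference control at the chosen probe set, and a larger difference of 0.91 at the other. Eif2b3 was the exception, at 0.81 in the survivors and 1.06 in the reference control. The median difference of the complex was 0.25.

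Eif2a and Eif2d encode tRNA-delivery factors that share the number but not the complex of eIF2. Eif2a had 1.59 in the survivors and 0.57 in the reference control, a difference of 1.01 at an _x_at probe set, beside -0.75 and 0.00 at the other 2. Eif2d had 1.19 on both arrays, and 3 of its 6 probe sets were equal, 2 lower and 1 higher.

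At their chosen probe sets, the subunits of eIF3, the scaffold that holds the small ribosomal subunit, were more often lower than higher. Of 11 measured subunits 7 were lower in the survivors (63.6%, with 38.1% of all genes lower), 3 were higher and 1 was equal. The median difference was -0.14, and it was -0.23 without _x_at and _s_at probe sets. It was -0.013 with each gene at the median of its probe sets. With the probe set of lowest mean or of highest value in the survivors it was 0.00, so the lean depended on the probe set chosen. Eif3e, also known as Int6, had 1.07 in the survivors and 2.51 in the reference control, a difference of -1.44, the lowest of the group. Its other 3 probe sets had -0.39, -0.19 and 0.00. Eif3h had 1.12 in the survivors and 1.95 in the reference control, a difference of -0.83, and was lower at each of its 3 probe sets. Eif3c had 0.58 in the survivors and 1.33 in the reference control, a difference of -0.75, with -0.91 at a second probe set from the same GenBank sequence and 0.00 at the other 2. Those 3 subunits had no probe set that was higher in the survivors.

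The other eIF3 subunits did not differ by more than 0.5 at their chosen probe sets. Eif3a, the largest subunit of the core, had 0.96 in the survivors and 1.39 in the reference control, although another of its 4 probe sets had 1.45 in the survivors and 0.28 in the reference control, a difference of 1.18. Eif3i had a difference of -0.32, with 0.29 at its other probe set, and Eif3f and Eif3k had -0.14 each. Upward differences were 0.49 for Eif3d and for Eif3m and 0.29 for Eif3b, and Eif3m was higher at both of its probe sets. Eif3l had 0.60 on both arrays, and its probe sets ran from -0.48 to 0.29.

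Scanning factors and the factors of subunit joining showed no difference past 1. Eif1b, a close relative of eIF1, which guards the choice of start codon, had 0.23 in the survivors and 0.92 in the reference control, a difference of -0.69. Of the eIF1A genes, Eif1a had a difference of 0.29 and Eif1ax one of -0.14, and each had a probe set of the opposite sign. Eif1ad, which encodes a protein with an eIF1A domain, had 0.95 in the survivors and 0.52 in the reference control and was higher at both probe sets.

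Eif5, the factor that activates GTP hydrolysis by eIF2, had 0.91 in the survivors and 1.35 in the reference control, a difference of -0.43, and of its 5 probe sets 1 was higher (0.43), 3 were lower and 1 was equal. Eif5b, the GTPase of subunit joining, had 1.10 in the survivors and 1.42 in the reference control, and another of its probe sets had 1.42 in the survivors and 0.74 in the reference control. Eif5a, which carries the modified amino acid hypusine and aids elongation, had 0.91 in the survivors and 0.73 in the reference control, and its paralog Eif5a2 had 1.80 in the survivors and 1.37 in the reference control, with -0.25 at its other probe set. Eif6, which keeps free large subunits from joining, had 1.13 in the survivors and 0.21 in the reference control, a difference of 0.92, with 0.43 at its other probe set.

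Probe sets of the same gene often disagreed in sign. Several probe sets were available for 37 members, and 22 of these (59.5%) had differences of both signs, as did 47.7% of the 9010 genes with several probe sets. All probe sets were higher for 5 of the 37 members (Eif1ad, Eif2b5, Eif3m, Eif5a and Eif6) and lower for 3 (Eif2ak4, Eif2s3y and Eif3h). Of the 9010 genes with several probe sets, 1165 had all of them higher and 805 had all of them lower, shares close to those of the members. For 18 GenBank sequences that served more than 1 probe set of a member, the signs were opposite for 12 (66.7%), with 35.5% among the 3824 such sequences of all genes. Over all 133 probe sets 6 were higher in the survivors by more than 1 (4.51%, with 3.7% of all probe sets with 1 symbol) and 3 were lower (2.26%, with 4.14%). For 2 members a probe set other than the chosen one passed the limit, Eif3a upward and Eif4a1 downward. Probe sets of a gene were taken to read different inserts against it and are not replicates of the condition.

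**Figure D3:**
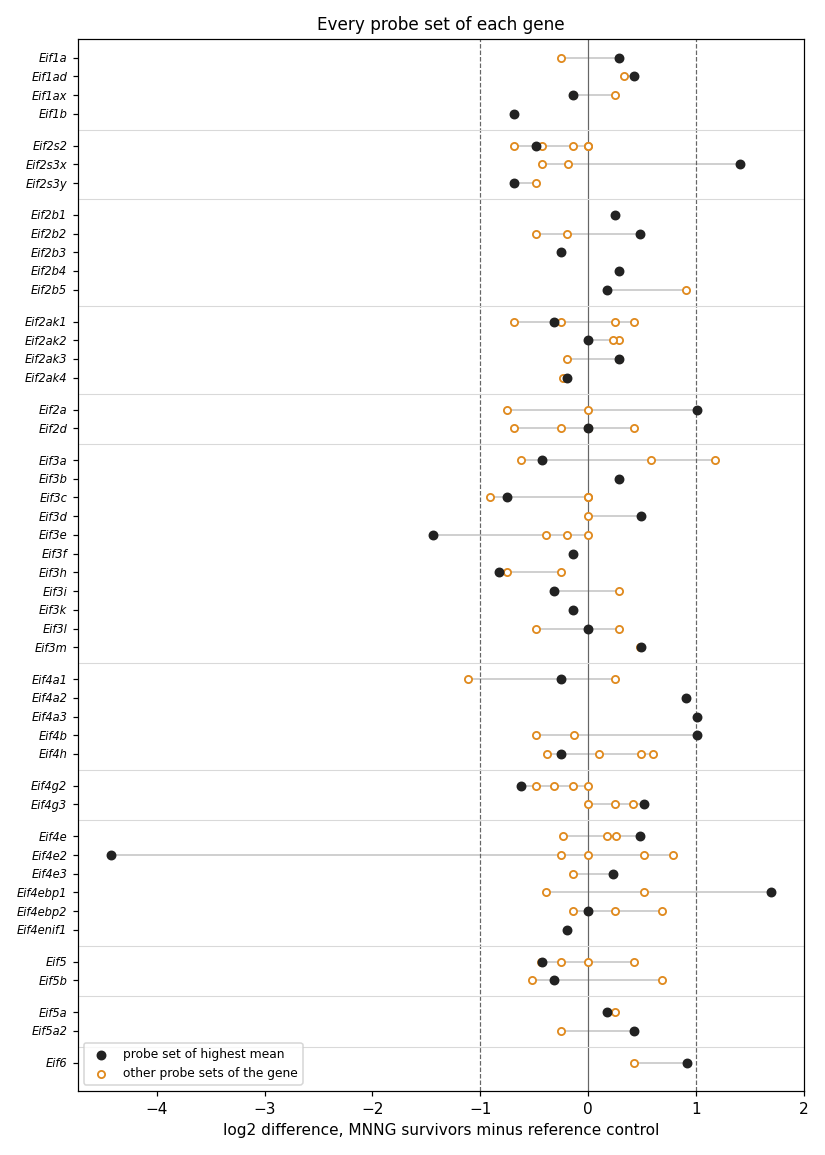
Log2 difference, MNNG survivors minus reference control (horizontal axis), at every probe set of each of the 47 genes (vertical axis), with filled points for the probe set of highest mean, open points for the others, a grey line over their range and dashed lines at 1 and -1. The value of -4.43 for Eif4e2 and those of 1.70 for Eif4ebp1 and 1.41 for Eif2s3x stand apart from the other probe sets of these genes.

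The small differences also took few distinct sizes. Among 47 members there were 25 sizes of difference at 3 decimals, and the 10 most common held 31 of the members (66.0%). Over all genes the 10 most common sizes held 59.9%. Of the 5 members higher by more than 1, 3 (Eif2a, Eif4a3 and Eif4b) shared 1 size, 1.01, which lies just past the limit. Over all genes, 137 of the 870 past the limit upward (15.7%) had this size. Eif2a and Eif4a3 had identical values on both arrays, a pair of values found at 87 probe sets in all, and 127 of the 133 member probe sets (95.5%) shared their pair of values with another probe set, against 91.0% of all those with 1 symbol. After median centering or loess, Eif2a, Eif4a3 and Eif4b were below the limit and 2 members remained above it, Eif2s3x and Eif4ebp1. All 5 remained above it after quantile normalization and with both arrays floored at the 25th percentile.

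Genes next to the initiation factors in the pathway were counted in the same way. The 23 targets and regulators of the integrated stress response had 11 higher, 9 lower and 3 equal, with a median difference of 0.00. Past the limit of 1, upward there was 1 of the 23, beside 4.78% of all genes past it. Downward there were 3 of the 23, beside 5.45% of all genes past it. Atf3, a stress-induced transcription factor, had 1.48 in the survivors and 0.47 in the reference control, a difference of 1.01 at its only probe set with 1 symbol. The scalings were applied to Atf3 after its value was seen. It was 0.96 after median centering or quantile normalization and 0.93 after loess, all below the limit. With both arrays floored at the 25th percentile it was 1.007, just past the limit. Hspa5, the chaperone BiP of the endoplasmic reticulum, had 1.38 in the survivors and 4.40 in the reference control. Prkra, which encodes the PKR activator PACT, had 0.37 in the survivors and 2.71 in the reference control. The adaptor Nck1 had 1.05 in the survivors and 2.49 in the reference control. Other probe sets of Hspa5, Prkra and Nck1 lay closer to zero, with differences that reached 0.29 for Hspa5, -0.14 for Prkra and 0.25 for Nck1. Atf4, named for its role after its value was seen, had a difference of -0.37, and its 3 probe sets ran up to 0.91.

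The list of mTORC1 signaling and the MNK kinases held 14 measured genes. Of these 8 were higher, 4 were lower and 2 were equal, with a median of 0.24, where 43.5% of all genes were higher and 38.1% lower. Their differences ran from -0.79 to 0.92, with 0 past 1 in either direction. Of the 18 other genes of initiation and termination 4 were higher, 13 were lower and 1 was equal, with a median of -0.23. Among all genes 43.5% were higher and 38.1% were lower. In that list of 18, 0 genes were past the limit upward and 1 downward, beside 5.45% of all genes past it downward. The gene past it was the termination factor Etf1, with -0.09 in the survivors and 6.19 in the reference control. Its 6 probe sets ran from -6.28 to 1.18. Of 13 elongation factor genes 6 were higher, 3 were lower and 4 equal, with a median of 0.00. Past the limit were 0 upward and, beside 5.45% of all genes, 1 of the 13 downward. That gene was Eef2, which encodes the factor that moves the ribosome along the mRNA, with 0.14 in the survivors and 4.17 in the reference control and a difference of -0.14 at its other probe set. The Argonaute genes, which once bore the name Eif2c but act in RNA silencing, had 1 higher, 2 lower and 1 equal.

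**Figure D4:**
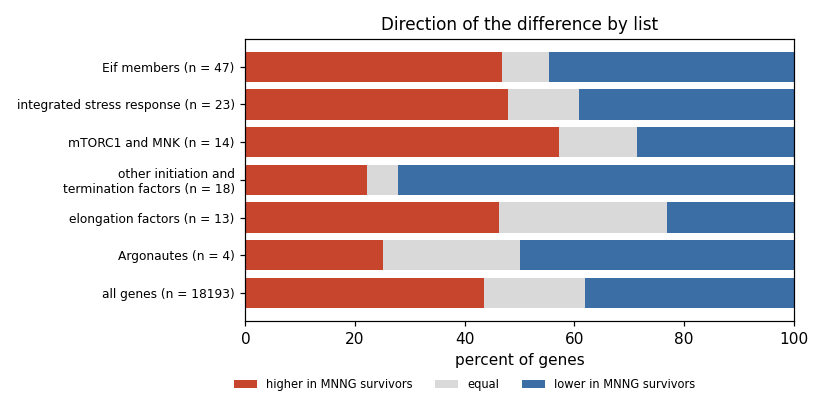
Percent of genes (horizontal axis) that were higher in the MNNG survivors, equal on both arrays or lower in the MNNG survivors, for the 47 members, for lists of neighboring genes and for all 18193 genes at the foot. The members split into 22 higher and 21 lower, and the other initiation and termination factors into 4 higher and 13 lower.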

How the data were processed

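Recovered library inserts of the MNNG survivors and of the reference control were read on 1 Affymetrix mouse genome array each. The values deposited by the authors are log2 signals, 1 per probe set and array. RMA is named in the notes of the submitters, its version is not given in the sources used here, and the paper adds quantile normalization and R. The deposited arrays did not share 1 distribution, with 99th percentiles of 2.68 in the survivors and 4.11 in the reference control. Whether the deposited values carry that normalization was not tested. Groups came from the sample titles. After 64 Affymetrix control probe sets were set aside, differences were computed for 45037 probe sets. The array annotation gave 1 symbol for 34945 probe sets, of which 34741 could be updated by gene ID (GRCm38.p6, names only). Probe sets with several symbols (932) or none (9160) named no gene. Eif1, Eif2s1, Eif3g, Eif4g1 and Eif4e1b had no probe set with their symbol alone and were not analysed here. No filter on low signals was applied, so all 47 members were kept.

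The call limit was a log2 difference of 1. With 1 array per group there was no test, and precision is limited by the number of arrays. Members and lists were chosen with earlier results of these data known. Every member was counted, and those past 1, above 3, or in the eIF2, eIF2B, kinase and eIF4E groups were named, with the highest and lowest of each group. The gene lists held the integrated stress response, mTORC1 and MNK, other initiation and termination factors, elongation factors, Argonautes and cell type markers. The markers of neurons (5 genes), astrocytes (4), oligodendrocytes (3) and microglia (3) had 0, 1, 2 and 1 genes lower by more than 1 and 0 higher. Among all genes 5.45% were lower and 4.78% higher by more than 1. The lower genes were Gfap, Mbp, Olig2 and Csf1r. Over their probe sets Gfap ran from -1.89 to 0.00, Mbp from -6.60 to 0.48 and Csf1r from -5.74 to -0.19. Olig2 had 1 probe set, at -2.32. These counts are not read as cell types present, since the arrays were meant to read inserts. Alternatives were median centering, quantile normalization, loess (fraction 0.3), centering on hybridization controls, flooring both arrays at the 25th percentile, other probe sets or limits, and the annotation's own symbols. A change of over 0.47 was counted as a move. This is the median absolute deviation of the log2 differences over all genes, scaled to an SD. The steps were tested on simulated data. Python 3.11.15, numpy 2.4.6, pandas 2.3.3, statsmodels 0.14.6 and matplotlib 3.10.9 were used.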

Additional observations from a re-analysis of the deposited data

How the results depend on the processing

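No paired analysis was possible because each group had 1 array, and leaving out a replicate was not possible for the same reason. The count of members higher by more than 1 was 5 as deposited. It stayed at 5 after quantile normalization (10.6%, with 5.71% of all genes) and with the floor (10.6%, with 3.91%). It was 2 after median centering (4.26%, with 3.75%) and after loess (4.26%, with 4.52%). Without _x_at and _s_at probe sets it was 3 (6.67%, with 4.58%). It was 1 with the median over probe sets (2.13%, with 2.13%) or the probe set of lowest mean (2.13%, with 2.62%). It was 6 with the highest value in the survivors (12.8%, with 6.22%), 7 at a limit of 0.8 (14.9%, with 7.48%), 1 at 1.5 (2.13%, with 1.12%) and 0 at 2.5. The count of members lower was 2 as deposited (4.26%, with 5.45% of all genes). It was 0 with the median over probe sets (2.04% of all genes), the lowest mean (1.86%) or the highest value in the survivors (2.96%). At a limit of 0.8 it was 3 (6.38%, with 7.21%), at 1.5 it was 1 (2.13%, with 2.77%) and at 2.5 it was 1 (2.13%, with 1.73%). Centering on the hybridization controls gave 0 higher and 47 lower, with the median over members and over all genes at -2.77. By group it gave medians of -2.69 (eIF1), -3.25 (eIF2), -2.51 (eIF2B), -2.86 (eIF2 kinases), -2.26 (eIF2A and eIF2D), -2.91 (eIF3), -1.85 (eIF4A, eIF4B and eIF4H), -2.82 (eIF4G), -2.65 (eIF4E family), -3.14 (eIF5 and eIF5B), -2.46 (eIF5A) and -1.84 (eIF6), and it turned Eif2a, Eif4a3, Eif4b and Atf3 to -1.75, Eif2s3x to -1.36 and Eif4ebp1 to -1.07. The shift of all genes accounts for these values by construction.

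The median of eIF4A, eIF4B and eIF4H was 0.10 with the floor, -0.076 with the median over probe sets and 0.25 with the lowest mean. That of eIF2A and eIF2D was -0.37 without _x_at and _s_at probe sets and 0.00 with the median over probe sets, that of eIF6 was 0.43 with the lowest mean, and with the highest value in the survivors those of eIF2 and of eIF5 and eIF5B were 0.00 and 0.13. Among members past 1 as deposited, signs turned for Eif2a (-0.75) and Eif4ebp1 (-0.39) without _x_at and _s_at probe sets. They turned for Eif2s3x (-0.19) and Eif4b (-0.13) with the median over probe sets, and for Eif2s3x (-0.19) and Eif4b (-0.48) with the lowest mean. With the highest value in the survivors the sign of Eif4e2 turned (0.79). Members within 1 also changed sign. Among them were Eif3a (-0.43 to 1.18) with the highest value in the survivors and Eif2b2 (0.48 to -0.19) with the lowest mean. The cause was not tested. Median centering and the annotation's own symbols moved 0 of the 47 single genes, quantile normalization and loess moved Eif4e2 (to -3.30 and -3.39), and the floor moved Eif4a2 (to 0.10). Other choices of probe set moved more. With the lowest mean 18 genes moved and 2 more turned sign from past 1. These counts were 7 and 1 with the highest value in the survivors and 6 and 2 with the median over probe sets. Without _x_at and _s_at probe sets they were 1 and 2.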

Other observations

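Some initiation factor genes were read only by probe sets that carried several gene symbols and so belong to no comparison above. The 3 probe sets shared by Eif3j1 and Eif3j2, which encode the eIF3 subunit that helps recycle ribosomes, had -0.10 in the survivors and 1.13 in the reference control at the first, 1.40 in the survivors and 1.25 in the reference control at the second, and 0.86 on both arrays at the third. The probe set shared by Eif4ebp3 and Ankhd1 had 0.46 in the survivors and 0.57 in the reference control. Eif4a3 had a second probe set in common with Gm5576, at 0.30 in the survivors and 0.55 in the reference control, and Eif1a shared 1 with Gm4027 and BB287469 at 0.96 on both arrays.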
